A study of Mus musculus with 19 samples.

Results

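The chemokine and chemoattractant receptors described here are 9 genes, Ccr1, Ccr6, Ccr7, Ccrl2, Cxcr4, Ackr3, Cmklr1, Fpr1 and Fpr2, out of 56980 genes in the count table. They were chosen by name and matched to the Ensembl identifiers of the table through the GENCODE mouse annotation, and all 9 had enough counts to be tested. Their RNA was measured by sequencing of CD11b+ cells, which were enriched with magnetic beads (MACS) from the brain, without olfactory bulb and cerebellum, of male mice aged 3 to 4 months. The 4 groups were wildtype mice given PBS (n = 4), wildtype mice given LPS (n = 5), KO mice given PBS (n = 5) and KO mice given LPS (n = 5), each mouse giving 1 library, numbered as in the sample titles. KO mice carry a gene-trap insertion in Park7, the gene of DJ-1, that is present in the germline (allele Gt(XE726)Byg, backcrossed to C57BL/6NCrl), and wildtype mice are their littermates. LPS, the bacterial lipopolysaccharide of E. coli O55:B5, was injected into the peritoneum at 4 µg per g of body weight, and the cells were collected after 6 h. PBS was the vehicle of the injection.

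Chemoattractant receptors are G protein-coupled receptors that turn a gradient of an extracellular ligand into directed migration. Most of them signal through inhibitory G proteins, and arrestins and GPCR kinases end the signal. Atypical receptors bind the same ligands without this signalling and remove or present them. In the brain, microglia use such receptors to respond to injury and infection, and blood myeloid cells use them to adhere to vessels and enter tissue. Among the 9 genes, Ccr1, Ccr6, Ccr7 and Cxcr4 encode chemokine receptors, Ackr3 and Ccrl2 encode atypical receptors, Cmklr1 encodes the signalling receptor of chemerin, and Fpr1 and Fpr2 encode receptors of formylated peptides from bacteria and mitochondria.

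Total counts per library ranged from 11936364 to 22788884, so that 3 counts, taken as the smallest signal of a library, amount to between 0.139 and 0.256 CPM. CPM here means a count divided by the TMM-adjusted library size in units of 1000000 counts. These limits cover counting error only. Park7 was at 22.3 ± 2.08 CPM (SD, n = 4) in wildtype PBS, 25.3 ± 3.91 CPM (SD, n = 5) in wildtype LPS, 1.66 ± 0.962 CPM (SD, n = 5) in KO PBS and 3.45 ± 1.72 CPM (SD, n = 5) in KO LPS, and every KO library was below every wildtype library. The labels call the cells primary microglia, and 9 microglia markers summed to between 25300 and 40600 CPM after PBS and between 10600 and 17000 CPM after LPS. All 9 of them fell after LPS in both genotypes, and their part in the receptor changes was not tested. Markers of other cells were present as well. The summed level of 5 oligodendrocyte markers ran from 515 to 11200 CPM and was highest within its group in wildtype PBS 2, wildtype LPS 2, KO PBS 1 and KO LPS 1. Results that differ without these 4 libraries are given with both values. Because the libraries are bulk samples, fewer cells of a type and less RNA per cell cannot be told apart in any value below.

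The genes lie on 5 chromosomes (GRCm39). Ccr1 (chr9:123762161-123768734, minus strand, ENSMUSG00000025804) is in the cluster of CC chemokine receptor genes of chromosome 9, with Xcr1 and Ccr3 on either side among the receptor genes there, and Ccrl2 (chr9:110883554-110886591, minus strand, ENSMUSG00000043953) lies elsewhere on the same chromosome. Cxcr4 (chr1:128515936-128520044, minus strand, ENSMUSG00000045382) and Ackr3 (chr1:90131689-90144473, plus strand, ENSMUSG00000044337), the receptors of Cxcl12, are both on chromosome 1. Ccr7 (chr11:99035022-99045911, minus strand, ENSMUSG00000037944) is on chromosome 11 and Cmklr1 (chr5:113750358-113788509, minus strand, ENSMUSG00000042190) on chromosome 5. Chromosome 17 holds Ccr6 (chr17:8454869-8475973, plus strand, ENSMUSG00000040899) and the neighbours Fpr1 (chr17:18096733-18104202, minus strand, ENSMUSG00000045551) and Fpr2 (chr17:18108070-18114215, plus strand, ENSMUSG00000052270). Fpr1 and Fpr2 point away from each other, with 3867 bases between their starts.

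Promoter sequences from RefSeq (GRCm38.p6), 250 bases before to 50 bases after each annotated start, were found for 8 of the 9 genes, with Ccr7 not among them, and held 11 starts in all. They were searched on both strands for the NF-kB decamer, for the GAS-type element (TTC, any 3 bases, GAA) and for the interferon-stimulated element (GAAA, any 2 bases, GAAA), which 8.46%, 8.3% and 3.44% of all 32851 promoters of the same length hold. The NF-kB motif was present in 3 genes (Ccr1, Ccr6, Ccrl2), the GAS-type element in 2 (Ccr6, Fpr2) and the interferon-stimulated element in 0. A gene with a motif held it at 1 of its starts. The shares of all promoters are counted per start, so that they compare with the 11 starts and not with the 8 genes. The 120 bases before the start are printed here, 5′ to 3′ on the strand of the gene, for 5 starts, because they hold the matches of the LPS-responsive receptors next to the neighbours Fpr1 and Fpr2. Capitals mark a match. They are Ccr1 (chr9:123968693-123968812, minus strand), Ccrl2 at the first of its 3 starts (chr9:111057519-111057638, minus strand), Ccr6 at the second of its 2 starts (chr17:8242406-8242525, plus strand), Fpr2 (chr17:17887704-17887823, plus strand) and Fpr1 (chr17:17883940-17884059, minus strand).
Ccr1: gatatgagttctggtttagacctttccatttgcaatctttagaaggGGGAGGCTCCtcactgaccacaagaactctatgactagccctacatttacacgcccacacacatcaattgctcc
Ccrl2: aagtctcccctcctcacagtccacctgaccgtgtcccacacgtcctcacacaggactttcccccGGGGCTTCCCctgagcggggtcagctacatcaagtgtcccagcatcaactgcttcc
Ccr6: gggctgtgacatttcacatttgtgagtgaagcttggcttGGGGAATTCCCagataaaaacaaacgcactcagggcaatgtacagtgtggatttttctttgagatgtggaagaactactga
Fpr2: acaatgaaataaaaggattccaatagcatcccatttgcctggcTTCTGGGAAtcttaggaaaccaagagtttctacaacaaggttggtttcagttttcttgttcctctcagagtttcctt
Fpr1: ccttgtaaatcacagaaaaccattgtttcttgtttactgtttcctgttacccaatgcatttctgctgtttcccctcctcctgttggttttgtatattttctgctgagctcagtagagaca
The NF-kB match began 74 bases before the start in Ccr1, 56 bases before it in Ccrl2, and in Ccr6 at 81 and, overlapping it, at 80 bases before it. The GAS-type match of Fpr2 began 77 bases before its start, and the other start of Ccr6 held GAS-type matches at 157 and 120 bases before it. The remaining promoters, those of Fpr1, Cxcr4, Ackr3, Cmklr1 and the other 2 starts of Ccrl2, held none of the 3 motifs. A match is a description of these letters and no evidence of binding.

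The first comparison asked how the receptors respond to LPS in wildtype CD11b+ cells. A gene was called changed at an adjusted p under 0.05 (Benjamini-Hochberg over 18739 genes) and a log2FC of at least 0.5 in size in edgeR's quasi-likelihood test. In wildtype mice, 7 of the 9 receptors passed, 6 higher (Ccr1, Ccr7, Ccrl2, Cxcr4, Fpr1, Fpr2) and 1 lower (Ccr6), while 35.9% of all genes tested passed, 18.4% higher and 17.4% lower. In KO mice, 6 of the 9 passed, 5 higher (the same without Cxcr4) and Ccr6 lower, against 39.1% of all genes, 20.1% higher and 19% lower. The median log2FC of the receptors was 1.59 in wildtype and 1.67 in KO mice, where that of all genes tested was -0.06 and -0.01. The LPS and PBS groups did not overlap for 6 of the 9 receptors in wildtype mice and for 7 of 9 in KO mice, beside 37.8% and 32.8% of all genes.

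**Figure D1:**
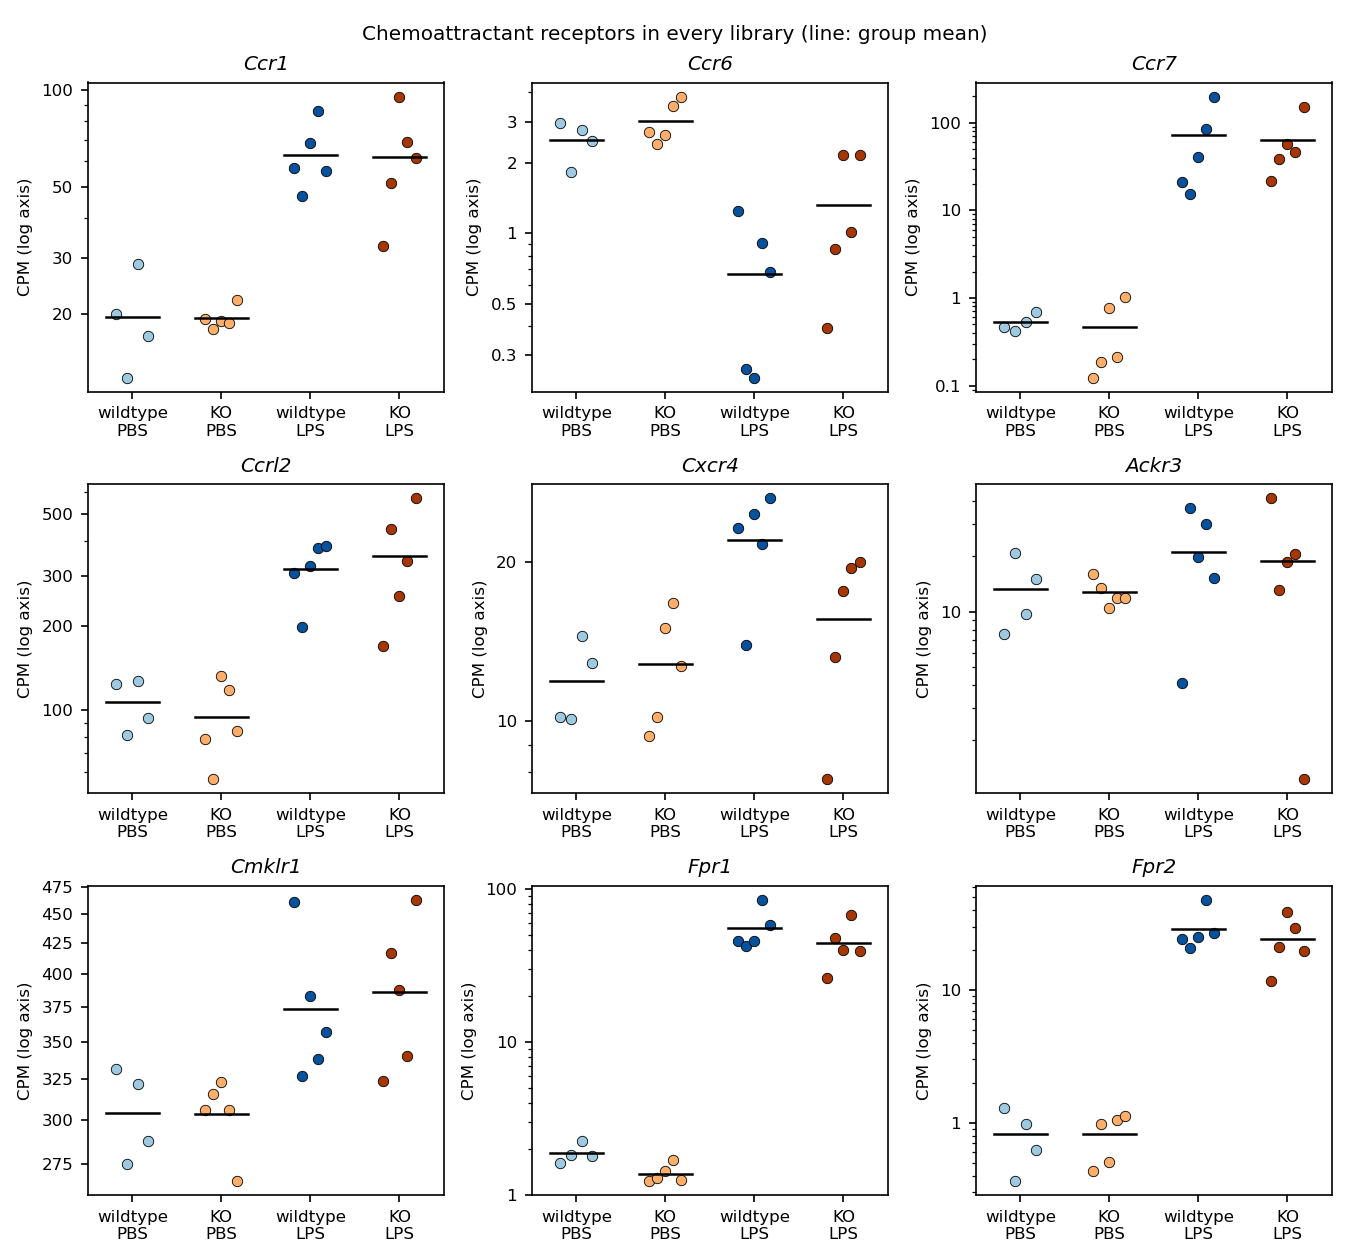
CPM of each receptor (vertical axis, log scale) in each of the 19 libraries, as points grouped by genotype and treatment, with the group mean as a line. Ccr7, Fpr1 and Fpr2 are separated widely between PBS and LPS in both genotypes, Ccr6 is the gene that lies lower after LPS, and Ackr3 runs from 1.23 to 41.3 CPM within KO LPS.

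Ccr7, the receptor of Ccl19 and Ccl21 that guides dendritic cells and lymphocytes to lymph nodes, had the highest log2FC of the 9 genes. Ccr7 was at 0.469, 0.424, 0.526 and 0.683 CPM in the 4 wildtype PBS libraries and at 21.2, 15.3, 40.1, 85.9 and 199 CPM in the 5 wildtype LPS libraries. Ccr7 in KO mice was at 0.123, 0.185, 0.762, 0.21 and 1.03 CPM after PBS and at 21.9, 38.6, 56.9, 46 and 152 CPM after LPS. Every LPS library was above every PBS library, and the library numbered 5 was the highest of each LPS group. The log2FC was 7.09 in wildtype (SE 0.92, adjusted p = 4.87e-06) and 7.07 in KO mice (SE 0.83, adjusted p = 1.19e-06). The fold of Ccr7 is set in part by those 2 libraries. Without wildtype LPS 5 the log2FC was 6.26, without KO LPS 5 it was 6.44, and the PBS counts behind it start at 2 per library. Of the Ccr7 ligands, Ccl19 was near 0, at 0.186 ± 0.196 CPM (SD, n = 5) in wildtype LPS. Ccl21a and Ccl21b had no count in any library. They are close copies of each other, and reads shared between copies may not be counted, so that their absence is not shown.

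Dendritic cell markers were compared with Ccr7. The sum of 6 of them was 352 to 1210 CPM in wildtype LPS, 547 to 937 CPM in KO LPS and 384 to 603 CPM after PBS, and most of it came from Fscn1, which was at 449 ± 65.9 CPM (SD, n = 4) in wildtype PBS. Of the 4 markers tested, 0 rose and 2 fell in wildtype mice, and 0 rose and 1 fell in KO mice. The highest sum of each LPS group was in library 5, which also had the highest Ccr7, and its part in the Ccr7 level was not tested. Over the deviations from the group means, Ccr7 and this sum had r = 0.61 and rho = 0.375, and r = 0.335 without the 2 libraries farthest from the median.

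Ccr1, a receptor of Ccl3, Ccl5, Ccl6, Ccl7 and Ccl9 on myeloid cells, rose in both genotypes. Ccr1 was at 20.1, 12.7, 28.7 and 17.1 CPM in the 4 wildtype PBS libraries and at 57.1, 46.8, 68.3, 86 and 55.9 CPM in the 5 wildtype LPS libraries. Ccr1 in KO mice was at 19.3, 18, 19.1, 18.8 and 22.1 CPM after PBS and at 32.6, 51.4, 95.4, 69 and 61.3 CPM after LPS. No LPS library was as low as the highest PBS library of its genotype. The test gave log2FC 1.68, SE 0.27, adjusted p = 4.28e-05 in wildtype and log2FC 1.67, SE 0.24, adjusted p = 1.51e-05 in KO mice, and the difference of the effects was -0.01 (95% interval -0.74 to 0.72). Of the ligands of Ccr1, Ccl3, Ccl5, Ccl7 and Ccl9 rose as well in both genotypes. Ccl5 went from 1.13 ± 0.301 CPM (SD, n = 4) to 269 ± 163 CPM (SD, n = 5) in wildtype mice (log2FC 7.90) and from 0.815 ± 0.374 CPM (SD, n = 5) to 193 ± 47.9 CPM (SD, n = 5) in KO mice (log2FC 7.86). Ccl9 had a log2FC of 2.68 and 3.11, Ccl7 of 2.51 and 2.51, and Ccl3 of 2.31 and 2.46. Ccl6 fell, by 0.84 in wildtype and by 0.61 in KO mice on the log2 scale, and the call in KO mice was lost without KO LPS 4 or KO PBS 2 (edgeR adjusted p = 0.0508 and 0.0652).

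Ccr6, the receptor of Ccl20 on B cells, T cells and dendritic cells, was low throughout, with 4 to 71 counts per library, and was the one receptor that fell. Ccr6 was at 2.97, 1.82, 2.76 and 2.48 CPM in the 4 wildtype PBS libraries and at 1.25, 0.263, 0.241, 0.91 and 0.682 CPM in the 5 wildtype LPS libraries. Ccr6 in KO mice was at 2.7, 2.4, 2.64, 3.51 and 3.84 CPM after PBS and at 0.394, 0.857, 2.15, 1.01 and 2.17 CPM after LPS. The PBS and LPS values did not overlap in either genotype. The test gave log2FC -1.89, SE 0.47, adjusted p = 0.00284 in wildtype and log2FC -1.20, SE 0.42, adjusted p = 0.0257 in KO mice. The call in KO mice rests on few counts. It was lost when KO LPS 1, 2 or 4 or KO PBS 4 or 5 was left out, with log2FC between -1.15 and -0.95 and adjusted p between 0.0507 and 0.0642. It was also lost without the 4 libraries highest in oligodendrocyte markers (log2FC -0.99, adjusted p = 0.0607). Ccl20, its ligand, had 0 counts in all 4 wildtype PBS libraries and 15 to 86 counts in the wildtype LPS libraries, at least 22.7-fold higher against a floor of 3 counts per library. KO mice had 2 counts of Ccl20 over the 5 PBS libraries and 2 to 142 counts per library after LPS.

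The B cell marker Cd79b, a subunit of the B cell receptor complex and the 1 marker of its list with enough counts to be tested, fell in both genotypes (log2FC -2.18 in wildtype and -2.66 in KO mice). The markers Cd79a, Pax5 and Ms4a1 were too low to be tested. Cd79a, the partner subunit of Cd79b, had a mean of 0.031 CPM in wildtype PBS, 0.41 CPM in wildtype LPS, 0.117 CPM in KO PBS and 0.305 CPM in KO LPS, and Pax5, a B cell transcription factor, of 0.0778, 0.224, 0.0123 and 0.218 CPM. Ms4a1 was at 0.074 and 0.127 CPM in wildtype and at 0.0843 and 0.0144 CPM in KO mice after PBS and LPS. Over the deviations from the group means, Ccr6 had r = 0.599 and rho = 0.539 with the sum of border-associated macrophage markers, whose median was lower after LPS in both genotypes, and r was -0.708 with the endothelial sum, -0.675 with the oligodendrocyte sum, -0.599 with the astrocyte sum and -0.502 with the neuron sum. The part of these cells and of B cells in the Ccr6 difference was not tested.

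Cxcr4, the signalling receptor of Cxcl12 that retains leukocytes in bone marrow, rose in wildtype mice. Cxcr4 was at 10.2, 10.1, 14.5 and 12.9 CPM in the 4 wildtype PBS libraries and at 23.2, 13.9, 24.7, 21.6 and 26.4 CPM in the 5 wildtype LPS libraries. Cxcr4 in KO mice was at 9.39, 10.2, 15, 16.7 and 12.7 CPM after PBS and at 7.76, 13.2, 17.6, 19.5 and 20 CPM after LPS. The wildtype ranges overlapped through LPS 2, the lowest of its group, and in KO mice LPS 1 was below every PBS library. The change was past the thresholds in wildtype (log2FC 0.88, SE 0.26, adjusted p = 0.0094) and not in KO mice (log2FC 0.29, SE 0.24, adjusted p = 0.356). The difference between these effects, KO minus wildtype, was -0.59 with a 95% interval from -1.32 to 0.14 (adjusted p = 1), so that a difference between the genotypes was not shown. Cxcl12, its ligand, fell from 129 ± 85.1 CPM (SD, n = 4) to 9.92 ± 6.3 CPM (SD, n = 5) in wildtype (log2FC -3.70, SE 0.62, adjusted p = 8.33e-05) and from 120 ± 75.2 CPM (SD, n = 5) to 8.6 ± 6.95 CPM (SD, n = 5) in KO mice (log2FC -3.79, SE 0.61, adjusted p = 4.39e-05). Mif, a cytokine that also binds Cxcr4, rose in both genotypes (log2FC 1.45 and 1.32).

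Ackr3, the atypical receptor that takes up Cxcl12 and Cxcl11, had the highest ratio of the highest to the lowest library within a group, 33.7 in KO LPS. Ackr3 was at 7.56, 20.8, 9.72 and 15 CPM in the 4 wildtype PBS libraries and at 4.12, 36.4, 19.9, 30 and 15.3 CPM in the 5 wildtype LPS libraries. Ackr3 in KO mice was at 16, 13.5, 10.5, 11.8 and 11.9 CPM after PBS and at 41.3, 13.1, 18.6, 20.5 and 1.23 CPM after LPS. KO LPS 1 and KO LPS 5 were the highest and the lowest of all 19 libraries. LPS and PBS did not differ beyond this spread in wildtype (log2FC 0.67, 95% interval -0.62 to 1.96, adjusted p = 0.421) or in KO mice (log2FC 0.58, 95% interval -0.62 to 1.78, adjusted p = 0.446). Cxcl11, its other chemokine ligand, passed in both genotypes. It had 8 counts in wildtype PBS 2 and 0 in the other wildtype PBS libraries, 52 to 300 counts in the wildtype LPS libraries, 0 to 2 counts in the KO PBS libraries and 78 to 323 counts in the KO LPS libraries, so that no exact fold is given. Adm, the peptide adrenomedullin that Ackr3 also binds, rose as well (log2FC 3.02 and 3.06).

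Ackr3 moved with markers of several other cell types, the endothelial ones most closely. The sum of 5 endothelial markers ran from 73 CPM in KO LPS 5 to 748 CPM in KO LPS 1 within that group, from 154 to 701 CPM in wildtype LPS, from 386 to 793 CPM in KO PBS and from 281 to 915 CPM in wildtype PBS, with no marker at 0. Over the deviations of the 19 libraries from their group means, Ackr3 and this sum had r = 0.961 and rho = 0.942, and r = 0.913 without the 2 libraries farthest from the median. The r of Ackr3 was 0.864 with the astrocyte sum, 0.747 with the monocyte sum (0.0152 without Fn1, its most abundant gene), 0.652 with the neuron sum, 0.568 with the T and NK cell sum and 0.54 with the oligodendrocyte sum, and the part of these cells in the Ackr3 level was not tested. With the mean log2 CPM of endothelial, astrocyte, oligodendrocyte and neuron markers as a covariate, the log2FC of Ackr3 was 0.36 in wildtype and 0.06 in KO mice. This covariate was added after the values were seen. Some of its markers changed with LPS themselves (in wildtype mice, Gfap log2FC 1.71 and Cldn5 log2FC -1.58), so that it does not measure cell content alone.

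**Figure D2:**
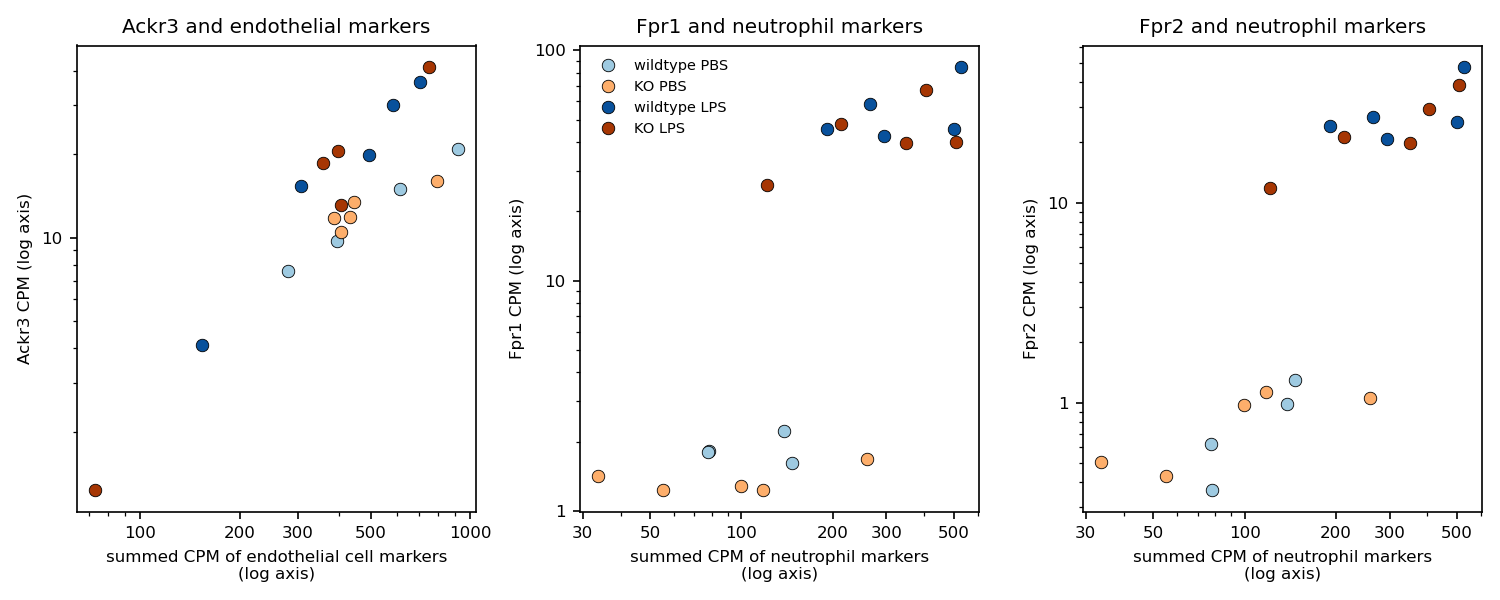
CPM of Ackr3 against the summed CPM of endothelial markers, and CPM of Fpr1 and of Fpr2 against the summed CPM of neutrophil markers, on log axes, with 1 point per library coloured by group. The endothelial sums run from 73 to 915 CPM and the neutrophil sums from 33.8 to 527 CPM, and Fpr1 and Fpr2 are higher in every LPS library than in every PBS library.

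Ccrl2 and Cmklr1 both bind chemerin. Ccrl2 does not signal and presents chemerin to neighbouring cells, and Cmklr1 carries the chemotactic signal. Ccrl2 was at 124, 81, 127 and 93.3 CPM in the 4 wildtype PBS libraries and at 308, 197, 327, 378 and 386 CPM in the 5 wildtype LPS libraries. Ccrl2 in KO mice was at 78.9, 56.4, 132, 118 and 83.9 CPM after PBS and at 169, 442, 256, 340 and 571 CPM after LPS. All LPS libraries were above all PBS libraries for Ccrl2 (log2FC 1.59, SE 0.31, adjusted p = 0.000406 in wildtype, log2FC 1.92, SE 0.29, adjusted p = 2.31e-05 in KO mice). Cmklr1 ran from 275 to 332 CPM in wildtype PBS, from 327 to 461 CPM in wildtype LPS, from 266 to 323 CPM in KO PBS and from 324 to 463 CPM in KO LPS. Its change was small, with a log2FC of 0.29 in wildtype (SE 0.12, adjusted p = 0.0586) and 0.35 in KO mice (SE 0.11, adjusted p = 0.0169), the latter past the p threshold and short of the fold threshold. Rarres2, the gene of chemerin, was at 1.82 ± 1.35 CPM (SD, n = 4) in wildtype PBS and 1.51 ± 1.03 CPM (SD, n = 5) in wildtype LPS and did not pass in either genotype (log2FC -0.27 and -0.19, adjusted p = 0.812 and 0.854).

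Fpr1 and Fpr2, which guide neutrophils, monocytes and microglia to formylated peptides, rose together. Fpr1 was at 1.62, 1.82, 2.23 and 1.8 CPM in the 4 wildtype PBS libraries and at 45.5, 42.5, 45.4, 84.8 and 58.3 CPM in the 5 wildtype LPS libraries. Fpr1 in KO mice was at 1.23, 1.29, 1.42, 1.68 and 1.24 CPM after PBS and at 26, 47.9, 40.1, 67.1 and 39.4 CPM after LPS. The lowest LPS library was far above the highest PBS library. For Fpr1 the test gave log2FC 4.89, SE 0.28, adjusted p = 5.75e-10 in wildtype and log2FC 5.00, SE 0.26, adjusted p = 9.6e-11 in KO mice. Fpr2 was at 1.3, 0.364, 0.985 and 0.621 CPM in the 4 wildtype PBS libraries and at 24.1, 20.8, 25.2, 47.8 and 26.8 CPM in the 5 wildtype LPS libraries. Fpr2 in KO mice was at 0.43, 0.97, 0.508, 1.05 and 1.13 CPM after PBS and at 11.8, 21.2, 38.6, 29.5 and 19.8 CPM after LPS. Fpr2 separated the treatments as fully as Fpr1 (log2FC 5.12, SE 0.44, adjusted p = 4.03e-08 in wildtype, log2FC 4.87, SE 0.40, adjusted p = 1.26e-08 in KO mice). Among Fpr2 ligands, Saa3, a serum amyloid A gene, rose from 0.613 ± 0.958 CPM (SD, n = 4) to 586 ± 302 CPM (SD, n = 5) in wildtype and from 0.389 ± 0.75 CPM (SD, n = 5) to 412 ± 163 CPM (SD, n = 5) in KO mice (log2FC 9.91 and 10.02). Library 4 carried most of both PBS means of Saa3, with 33 counts in each genotype against 0 to 3 counts in the other PBS libraries, and without it the log2FC was 12.01 in wildtype and 12.74 in KO mice. Saa1 passed in both genotypes at a far lower level, with 1 count over each PBS group, 4 to 27 counts per library in wildtype LPS and 7 to 33 in KO LPS. Saa1 has a close copy in Saa2, so that reads may be split between them. Anxa1, annexin A1, passed in KO (log2FC 1.10, SE 0.40, adjusted p = 0.0289) and not in wildtype mice (log2FC 1.05, SE 0.43, adjusted p = 0.0552), a difference that was not shown (interaction 0.05, adjusted p = 1). The call of Anxa1 in KO mice was lost without KO LPS 3 or 4 or KO PBS 1, 2 or 3, with an edgeR adjusted p of 0.0646 to 0.092. Camp, the cathelicidin, passed in neither (log2FC 0.61 and -0.33).

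Markers of blood myeloid cells moved with LPS beside these receptors. Of 10 neutrophil markers, 5 rose in wildtype and 6 in KO mice and 0 fell. Their sum was 77.7 to 147 CPM in wildtype PBS, 191 to 527 CPM in wildtype LPS, 33.8 to 259 CPM in KO PBS and 121 to 507 CPM in KO LPS, and no marker was at 0 in a whole group. Ly6g, a defining neutrophil surface marker, had 3 to 30 counts per library and did not pass (log2FC 0.35 and 0.28). Within groups, the deviations of Fpr2 from the group means had r = 0.786 and rho = 0.842 with those of the neutrophil sum over 19 libraries (r = 0.731 without the 2 farthest), those of Fpr1 r = 0.451 and rho = 0.326, and those of Ccr1 r = 0.608 and rho = 0.663. With the border-associated macrophage sum, r was 0.582 for Fpr2, 0.527 for Fpr1 and 0.617 for Ccr1. Of 7 monocyte markers, 6 rose in each genotype, and their sum was 136 to 331 CPM in wildtype PBS, 440 to 702 CPM in wildtype LPS, 161 to 325 CPM in KO PBS and 269 to 681 CPM in KO LPS. Fn1, fibronectin, was the monocyte marker that did not pass (log2FC 0.50 in both genotypes), and it made up much of that sum, with 183 ± 89.5 CPM (SD, n = 4) in wildtype PBS and 259 ± 99.4 CPM (SD, n = 5) in wildtype LPS. Without Fn1, a choice made after the values were seen, the sum was 35.6 to 50.9 CPM in wildtype PBS, 241 to 404 CPM in wildtype LPS, 27.9 to 62.7 CPM in KO PBS and 155 to 396 CPM in KO LPS, with no overlap between PBS and LPS. With the whole monocyte sum, r was -0.228 for Fpr2, 0.0622 for Fpr1 and -0.0956 for Ccr1, and without Fn1 it was 0.734, 0.619 and 0.642. The part of these lists in the rise of Fpr1, Fpr2 and Ccr1 was not tested.

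**Figure D3:**
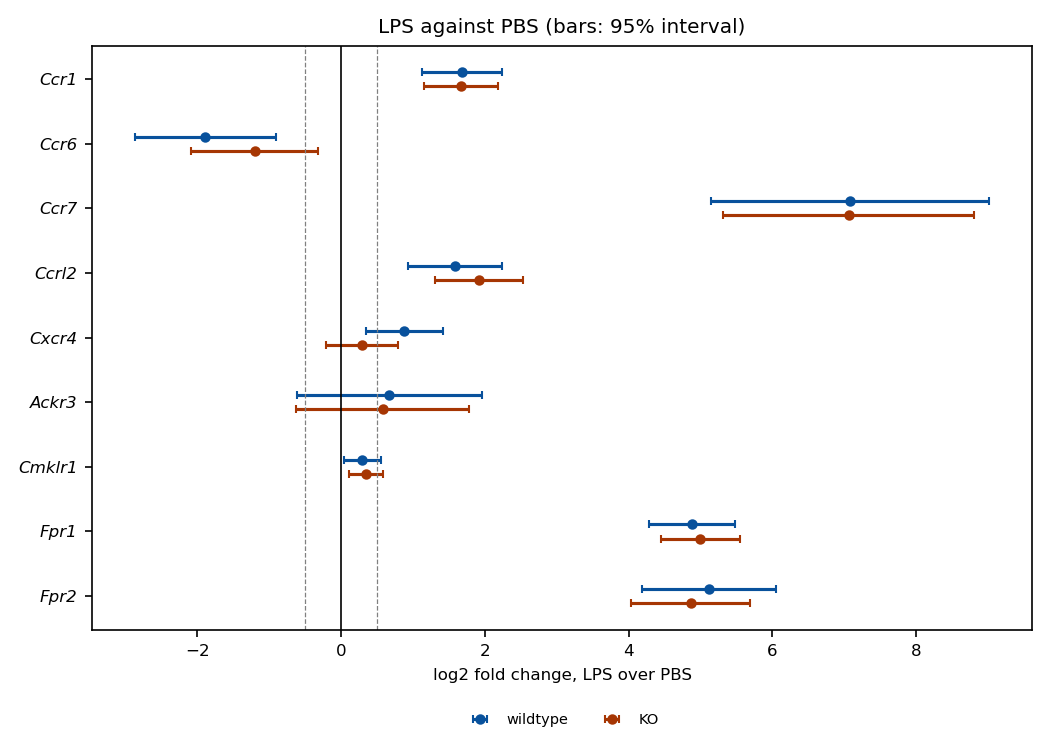
Log2 fold change of LPS over PBS (horizontal axis) for each receptor in wildtype and in KO mice, with 95% intervals from the quasi-likelihood fit and dashed lines at the fold threshold of 0.5. Ccr7, Fpr1 and Fpr2 stand farthest to the right at 4.87 to 7.09, Ccr6 lies to the left, and the intervals of Ackr3 include 0 in both genotypes.

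The second comparison asked whether loss of DJ-1 changed the receptors. The thresholds were an unadjusted p under 0.05 and a log2FC of at least 0.5 in size, and 0 of the 9 receptors passed after LPS (1.31% of all genes tested did, 0.544% higher and 0.763% lower) or after PBS (0.8% of all genes, 0.224% higher and 0.576% lower). None had an unadjusted p under 0.05 in either condition, which 2.57% and 1.04% of all genes had, and for 0 of 9 receptors did the KO and wildtype ranges not overlap (0.219% and 0.971% of all genes). The median log2FC of the receptors was -0.16 after LPS and -0.01 after PBS. Every adjusted p of the receptors was 1, and 0.0107% of all genes after LPS and 0.00534% after PBS had an adjusted p under 0.05.

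After LPS, the receptors nearest to the thresholds were Ccr6 and Cxcr4. The wildtype mean of Ccr6 was 0.67 ± 0.432 CPM (SD, n = 5) and the KO mean 1.32 ± 0.803 CPM (SD, n = 5) (log2FC 0.95, 95% interval -0.003 to 1.907). For Cxcr4, wildtype mice averaged 22 ± 4.81 CPM (SD, n = 5) and KO mice 15.6 ± 5.14 CPM (SD, n = 5) (log2FC -0.49, 95% interval -0.991 to 0.007). Both lay so close to the thresholds that other settings moved them across. The count of receptors past the thresholds was 2 with no low-count filter (2.44% of all genes tested), 1 with DESeq2 (Ccr6, log2FC 0.97, beside 1.35% of all genes) and 2 with the markers of other brain cells as a covariate (Ccr6 and Cxcr4, beside 2.01%), all of them with an adjusted p of 0.967 or more. Leaving out KO LPS 4 gave 3, with Fpr1 as the third (log2FC -0.53), beside 1.82% of all genes.

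The other receptors gave intervals of unequal width after LPS. Cmklr1 was estimated most closely, at 0.05 with an interval of -0.19 to 0.29. Ccr1 lay at -0.02 (-0.52 to 0.48), Ccrl2 at 0.16 (-0.44 to 0.75), Fpr1 at -0.33 (-0.77 to 0.12) and Fpr2 at -0.26 (-0.94 to 0.42). The intervals of Ccr7 (-1.44 to 1.04) and Ackr3 (-1.35 to 1.04) were too wide to limit a genotype difference to less than 2-fold in either direction. For Ccr7 the estimate of -0.20 turned on single libraries, with a log2FC of -0.82 without KO LPS 5, 0.63 without wildtype LPS 5, 0.02 without KO LPS 1 and 0.01 without all libraries numbered 5. After PBS, the largest difference in size was that of Fpr1, with 1.87 ± 0.261 CPM (SD, n = 4) in wildtype and 1.37 ± 0.186 CPM (SD, n = 5) in KO mice (log2FC -0.44, 95% interval -0.999 to 0.125). The interaction of genotype and LPS passed for 0 of 9 receptors and, at an adjusted p under 0.05 in edgeR, for 0% of all genes (0.961% had an unadjusted p under 0.05), and 0 receptors had an unadjusted p under 0.05. DESeq2 likewise called 0 interactions among all genes.

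**Figure D4:**
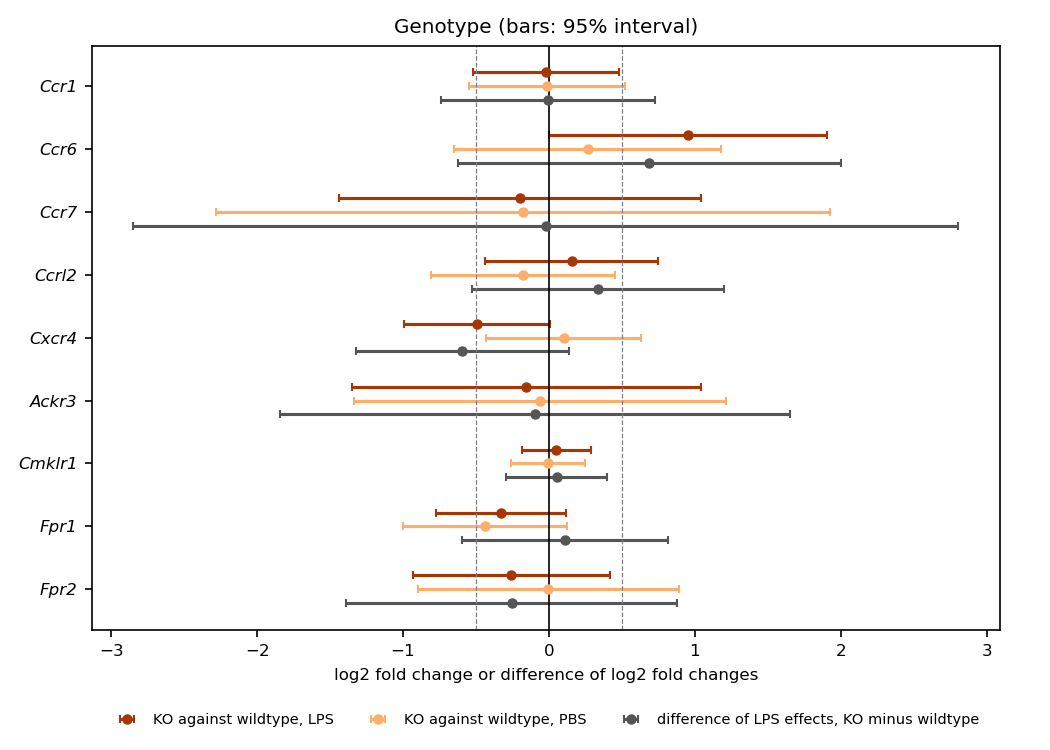
Log2 fold change of KO over wildtype after LPS and after PBS, and the difference of the LPS effects (KO minus wildtype), for each receptor on the horizontal axis, with 95% intervals and dashed lines at 0.5 in size. All 27 intervals include 0, and those of Ccr6 and Cxcr4 after LPS end closest to it.

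Levels were compared between genes per kb of exon. In wildtype PBS the order of the mean CPM per kb was Cmklr1 (73.1 ± 6.5, SD, n = 4), Ccrl2 (40.6 ± 8.65), Ccr1 (6.92 ± 2.38), Cxcr4 (6.55 ± 1.19), Ackr3 (1.64 ± 0.732), Fpr1 (1.41 ± 0.197), Ccr6 (1.02 ± 0.205), Fpr2 (0.623 ± 0.314) and Ccr7 (0.265 ± 0.0568). The library ranges of Ccr1 and Cxcr4, of Ackr3 and Fpr1, of Ccr6 and Fpr2 and of Fpr2 and Ccr7 overlapped, so that these neighbours were not separated. In wildtype LPS the order was Ccrl2 (122 ± 29, SD, n = 5), Cmklr1 (89.6 ± 12.9), Fpr1 (41.8 ± 13.3), Ccr7 (36.4 ± 38.3), Ccr1 (22.1 ± 5.31), Fpr2 (22 ± 8.22), Cxcr4 (12 ± 2.64), Ackr3 (2.61 ± 1.55) and Ccr6 (0.273 ± 0.176). Here the ranges separated Cmklr1 from Fpr1, Fpr2 from Cxcr4 and Cxcr4 from Ackr3, and all other neighbours overlapped. KO mice had the same order of means after LPS, and after PBS they differed from wildtype mice in the order of neighbours whose ranges overlapped in KO mice (Cxcr4 and Ccr1, Ccr6 and Fpr1).

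**Figure D5:**
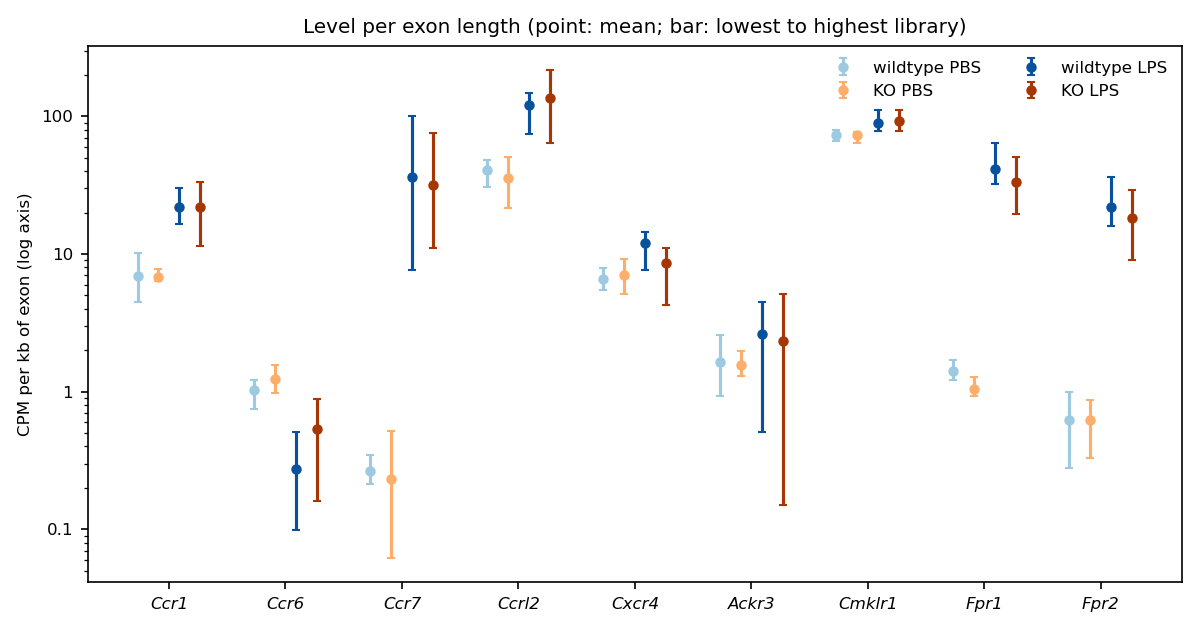
Mean CPM per kb of exon (vertical axis, log scale) of each receptor in the 4 groups, with bars from the lowest to the highest library. Cmklr1 and Ccrl2 lead in every group, and Ccr7 moves from 0.232 to 0.265 after PBS to 31.7 to 36.4 after LPS.

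Receptors outside the 9, taken from a list of 35 further chemoattractant receptors, split in both directions. Of 21 tested, 7 rose and 6 fell in wildtype and 8 rose and 6 fell in KO mice, with a median log2FC of 0.06 and 0.10. The largest rises in wildtype mice were those of Ackr1, an atypical chemokine receptor of venules and red cells (log2FC 5.69), Cxcr2, a neutrophil chemokine receptor that is also in the neutrophil list (log2FC 4.17), and Ltb4r1, the leukotriene B4 receptor (log2FC 3.36). Their values in KO mice were 5.18, 4.00 and 2.86, and there Cxcr5, a B cell receptor of Cxcl13 (log2FC 4.72, and 2.81 in wildtype mice), and C5ar1, the receptor of complement C5a (log2FC 3.26, and 2.97 in wildtype mice), were above Ltb4r1. Cxcr5 had 1 to 6 counts in a PBS library and 13 to 87 in an LPS library, and the difference of its LPS effects, KO minus wildtype, was 1.91 (95% interval 0.187 to 3.639, adjusted p = 1 in edgeR). The largest falls were those of Cxcr3, which went from 32 to 68 counts per wildtype PBS library to 0 to 2 after LPS, of P2ry12, the nucleotide receptor that marks microglia (log2FC -3.66), and of Cysltr1, a cysteinyl leukotriene receptor (log2FC -2.12). No receptor of this list passed between KO and wildtype mice.

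Of 22 ligand genes, 18 were tested, and 12 rose and 2 fell in each genotype, with a median log2FC of 2.10 in wildtype (also with Ccl20 at its bound) and 2.31 in KO mice. Saa3, Ccl20 and Ccl5 were among those that rose, and Cxcl12 and Ccl6 were those that fell. Of 32 genes of receptor signalling (G protein subunits, GPCR kinases, arrestins, RGS proteins and migration effectors), all tested, 6 rose and 13 fell in wildtype and 7 rose and 13 fell in KO mice, with a median of -0.34 and -0.39. Rgs16, which speeds the shutdown of G protein signals, rose most (log2FC 3.82 in wildtype, 3.78 in KO mice), followed by Pik3r5, a subunit of the PI3K gamma complex (1.89 and 2.00), and the GTPase Rac2 (1.16 and 1.06). In wildtype mice the lowest log2FC were those of Rgs10, another RGS protein (-2.16), Arrb1, an arrestin (-2.09), and Rgs18 (-2.07), which in KO mice were at -2.15, -1.93 and -2.33 (Rgs18 at -2.92 without KO LPS 3). No ligand and no signalling gene passed between KO and wildtype mice. These lists were chosen with results of these data known, and the counts describe them without a test of the list.

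The remaining marker lists gave the following values. Of 7 markers of border-associated macrophages, 4 fell in each genotype, and their sum was 489 to 652 CPM after PBS and 274 to 527 CPM after LPS. T and NK cell markers summed to no more than 2.89 CPM in any library, and 1 of them, Ncr1, was past the thresholds in KO against wildtype mice after LPS (log2FC -1.63, 95% interval -3.06 to -0.20, adjusted p = 1 in edgeR). Astrocyte markers summed to 159 to 3970 CPM and neuron markers to 11 to 93.8 CPM. Of 5 astrocyte markers 1 rose in each genotype, and of 5 endothelial markers 0 rose and 1 fell in wildtype mice while 1 rose and 1 fell in KO mice. Of 4 neuron markers, 1 rose in each genotype, Tubb3, a neuronal tubulin (log2FC 2.56, adjusted p = 0.00177 in wildtype, log2FC 1.66, adjusted p = 0.0143 in KO mice). Of 5 oligodendrocyte markers, 0 passed in either genotype. For the receptors not yet compared with these lists, r with the endothelial sum was -0.591 for Cxcr4, -0.635 for Ccrl2 and -0.795 for Cmklr1, r with the microglia sum was -0.133, 0.0481 and 0.762, and r with the monocyte sum without Fn1 was 0.642, 0.21 and 0.0288 (with Fn1, -0.26, -0.519 and -0.691).

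Each receptor with a mean of at least 50 counts was compared with 11833 protein-coding genes by the correlation of log2 CPM deviations from the 4 group means over the 19 libraries, which leaves out the difference between groups. The points share library depth and cell composition, and the values are descriptions. Ccrl2 was most like Nr4a1 (r = 0.947, rho = 0.893), Tnf (r = 0.934) and Nfkbia (r = 0.933). Ackr3 was most like Col4a1 (r = 0.985, rho = 0.965), Lef1 (r = 0.985) and Mcc (r = 0.984). Ccr7 was most like Hjurp (r = 0.922), Nfkb2 (r = 0.881) and Hivep3 (r = 0.876). The closest genes were Plbd1 (r = 0.886), Cytip (r = 0.877) and Themis2 (r = 0.854) for Ccr1. For Cxcr4 they were Tnrc6a (r = 0.877), Mapk1ip1l (r = 0.873) and Atxn7l1 (r = 0.866). For Cmklr1 they were Exosc1 (r = 0.925), Fermt3 (r = 0.922) and Rpl10a (r = 0.914). The neighbours Fpr1 and Fpr2 had different leading genes, Fbxl5 (r = 0.864), Mtm1 (r = 0.802) and Tbc1d8b (r = 0.802) for Fpr1 and Ifitm6 (r = 0.897), Smc5 (r = 0.878) and Clec4d (r = 0.861) for Fpr2. Without the 2 libraries farthest from the median, r was 0.895 to 0.921 for the genes of Ccrl2, 0.945 to 0.954 for Ackr3, 0.786 to 0.861 for Ccr7, 0.718 to 0.772 for Ccr1, 0.695 to 0.782 for Cxcr4, 0.852 to 0.87 for Cmklr1, 0.583 to 0.792 for Fpr1 and 0.839 to 0.883 for Fpr2.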

How the data were processed

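Total RNA of MACS-enriched CD11b+ brain cells of 19 mice was sequenced as stranded, ribosome-depleted libraries. After Cutadapt, the authors mapped the reads to GRCm39 and counted them per Ensembl gene with STAR 2.7.9a, and deposited these raw counts without normalization. The fit used edgeR 4.0.16 (R 4.3.3) after filterByExpr (minimum count 10, total 15), with TMM and 1 quasi-likelihood fit of the 4 groups, which left 18739 of 56980 genes. The study itself used DESeq2. The SE was the log2FC divided by the square root of F, the 95% interval used the fitted degrees of freedom, and log2 CPM used a prior count of 2. The script was tested on simulated data. Names and exon lengths came from GENCODE M39 (56236 genes named, Fcrls not matched). The receptors, the lists and the tests were chosen with earlier results of these data known. Named besides the 9 receptors were Park7, their ligands, list genes with the 3 largest changes per direction or past the genotype thresholds, and the 3 most similar genes per receptor. A few marker genes and C5ar1 were named after their values were seen. No 2 libraries of a group were alike within sampling noise. Alternatives were other filters, DESeq2 1.42.0 and its size factors, the groups compared alone, a replicate block, ribosomal RNA and mitochondrial genes left out, and each library left out. Added after the values were seen were the libraries highest in oligodendrocyte markers left out, a covariate of other brain cell markers, and the libraries numbered 5 left out. The summed level of the B cell list is not reported here.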

Additional observations from a re-analysis of the deposited data

Results flagged for a closer look

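In 36 groups of receptor values, 1 library stood far from the others of its group in 2 cases, where chance flags about 1 group in 20. KO LPS 5 was at 152 CPM of Ccr7, and its gap to the next library was 0.73 of the range of the group. Wildtype LPS 4 was at 47.8 CPM of Fpr2, with a gap of 0.78 of the range. Both libraries were above every PBS library, as were the others of their groups.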

How the results depend on the processing

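Of 938 values of single receptors under the alternatives, 913 stayed on their side of the thresholds, 6 fell short of them (Ccr6 in KO mice), 19 passed them (Ccr6, Cxcr4 and Fpr1 between genotypes after LPS) and 0 called values changed sign. Among the 913 were 82 values that changed sign without passing under either setting. Requiring at least 10 counts in every library removes genes that are low in 1 group, and the counts past the thresholds then fell from 7 to 4 receptors and from 14 to 9 ligands in wildtype mice, and from 6 to 3 receptors and from 14 to 9 ligands in KO mice. The share of all genes tested that passed went from 35.9% to 40.8% in wildtype and from 39.1% to 42.9% in KO mice. Between genotypes after LPS the count of receptors was 0 (1.31% of all genes) and became 2 with no filter (2.44%) and 1 with that filter (0.834%), with DESeq2's size factors (1.33%), with DESeq2 (1.35%), with the replicate block (1.24%) and without ribosomal RNA and mitochondrial genes (1.27%). It ranged from 0 to 3 when 1 library was left out. Alternatives chosen after seeing the data gave 1 (without the libraries highest in oligodendrocyte markers, 1.4% of all genes), 2 (marker covariate, 2.01%) and 0 (without the libraries numbered 5, 2.47%), the last with a log2FC of Ccr7 after LPS of 6.26 in wildtype and 6.95 in KO mice. The causes were not tested. Deviations of same-numbered libraries from their group means had correlations of -0.0418 to 0.576 between LPS and PBS in wildtype mice and 0.0265 to 0.544 in KO mice. Between genotypes the correlations ran from -0.573 to 0.3 after LPS and from -0.29 to 0.299 after PBS. The sample titles number the mice without naming pairs, and these values do not settle whether the numbers pair the mice. With the replicate block, the log2FC of Ccr7 in wildtype mice was 6.15 and that of Cxcr4 between genotypes after LPS was -0.53. Low counts limit Ccr6 and, after PBS, Ccr7 and Fpr2.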
